A study of Mus musculus with 8 samples.

Results

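The titin-linked mechanosensing genes are a set of muscle genes whose proteins bind the giant protein titin or the Z-disc that anchors it, or sit on the actin cables attached there. They were chosen by symbol from a list of 10 names, and 9 of the 10 had a row among the 35494 gene symbols of the table: Ankrd1, Ankrd2, Ankrd23, Csrp3, Xirp1, Xirp2, Fhl1, Fhl3 and Lmcd1. No row carried the symbol Nbr1p. The gene Nbr1, whose protein is a partner of the titin kinase, has a row of its own and is described here only beside the members. All 9 found members passed the filter on low counts.

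RNA of whole quadriceps muscle was sequenced from 8 wild-type male C57BL/6 mice, aged 8 weeks at the start. In the scMC38 group, 4 mice were inoculated subcutaneously with 1000000 MC38 cells, which derive from a mouse colon tumour, in 200 µl. The 4 control mice received the same volume of phosphate-buffered saline with no cells. Muscle was taken after 28 days, and each mouse gave a single library. The labels do not say which of the heads of the quadriceps was taken, nor how much of each.

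Titin spans from the Z-disc to the M-band of the sarcomere and acts as its spring. The muscle ankyrin repeat proteins (Ankrd1, Ankrd2 and Ankrd23) bind the elastic part of titin and can also enter the nucleus, so they are regarded as carriers of a stretch signal. In mouse muscle their mRNAs are known to respond to stretch, denervation and injury, and Ankrd2 and Csrp3 are known to be more abundant in slow and oxidative muscle. LIM proteins such as Csrp3, Fhl1, Fhl3 and Lmcd1 link structural proteins to signalling and transcription, and the Xin proteins Xirp1 and Xirp2 bind actin at sites of strain.

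Libraries held between 50466729 and 62107372 estimated counts, so counting error was small beside the spread between mice. Skeletal muscle markers had a summed level of 100786 to 143978 CPM (counts scaled to library depth) in scMC38 and 101868 to 145158 CPM in control libraries, with all 10 detected in every library. Cardiac markers, which matter here because Ankrd1 and Csrp3 are also heart genes, summed to 2.42 to 5.40 CPM in scMC38 and 1.53 to 6.79 CPM in control libraries, with 3 or 4 of 8 at 0 counts in each scMC38 library and 4 or 5 of 8 in each control library. The libraries scMC38 1 and 3 stood apart by markers of bone and marrow cells (87.4 and 575 CPM summed over 6 markers, against 0.151 and 1.71 CPM in scMC38 2 and 4 and at most 0.340 CPM in controls). Neutrophil markers were highest in the same libraries (228 and 2299 CPM summed, against 9.86 and 28.8 CPM in scMC38 2 and 4). The source of this mRNA was not tested. Control 1 and 2 had the largest shares of mitochondrially encoded counts, at 24.3% and 29.7%, against 14.4% to 18.9% in the scMC38 libraries and 16.3% and 16.8% in control 3 and 4. The members were therefore also compared without each of these pairs. In whole muscle, fewer cells or fibres of a type and less RNA per cell cannot be told apart.

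None of the 9 members was called between scMC38 and control muscle at an adjusted p under 0.05 by edgeR, and 1 (Fhl3) had an unadjusted p under 0.05. Over all 14112 genes tested, 1.2% were called (0.737% higher and 0.468% lower in scMC38) and 21% had an unadjusted p under 0.05. DESeq2 and limma-voom also called 0 members, with 1 at an unadjusted p under 0.05 in each. Over all genes, DESeq2 called 10.1% and limma-voom 1.05%, and 23.1% and 18.7% had an unadjusted p under 0.05. Of the 9 log2 fold changes 8 were negative and that of Ankrd1 was positive, where 50.2% of all tested genes were positive. That count depended on control 2: without it 5 of 9 were negative, and without control 1 and 2 it was 4 of 9. It depended on the fit too. With all mice kept, 6 of 9 were negative with limma-voom, and 5 of 9 with the slow fibre or Myh2 level as covariate. What set several members apart from most genes was their spread between mice of the same group. Csrp3 and Ankrd2 differed by up to 15.3-fold and 6.12-fold between scMC38 mice, and by up to 313-fold and 139.6-fold between control mice. Without control 4 the folds between controls were 4.48 for Csrp3 and 5.06 for Ankrd2.

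**Figure D1:**
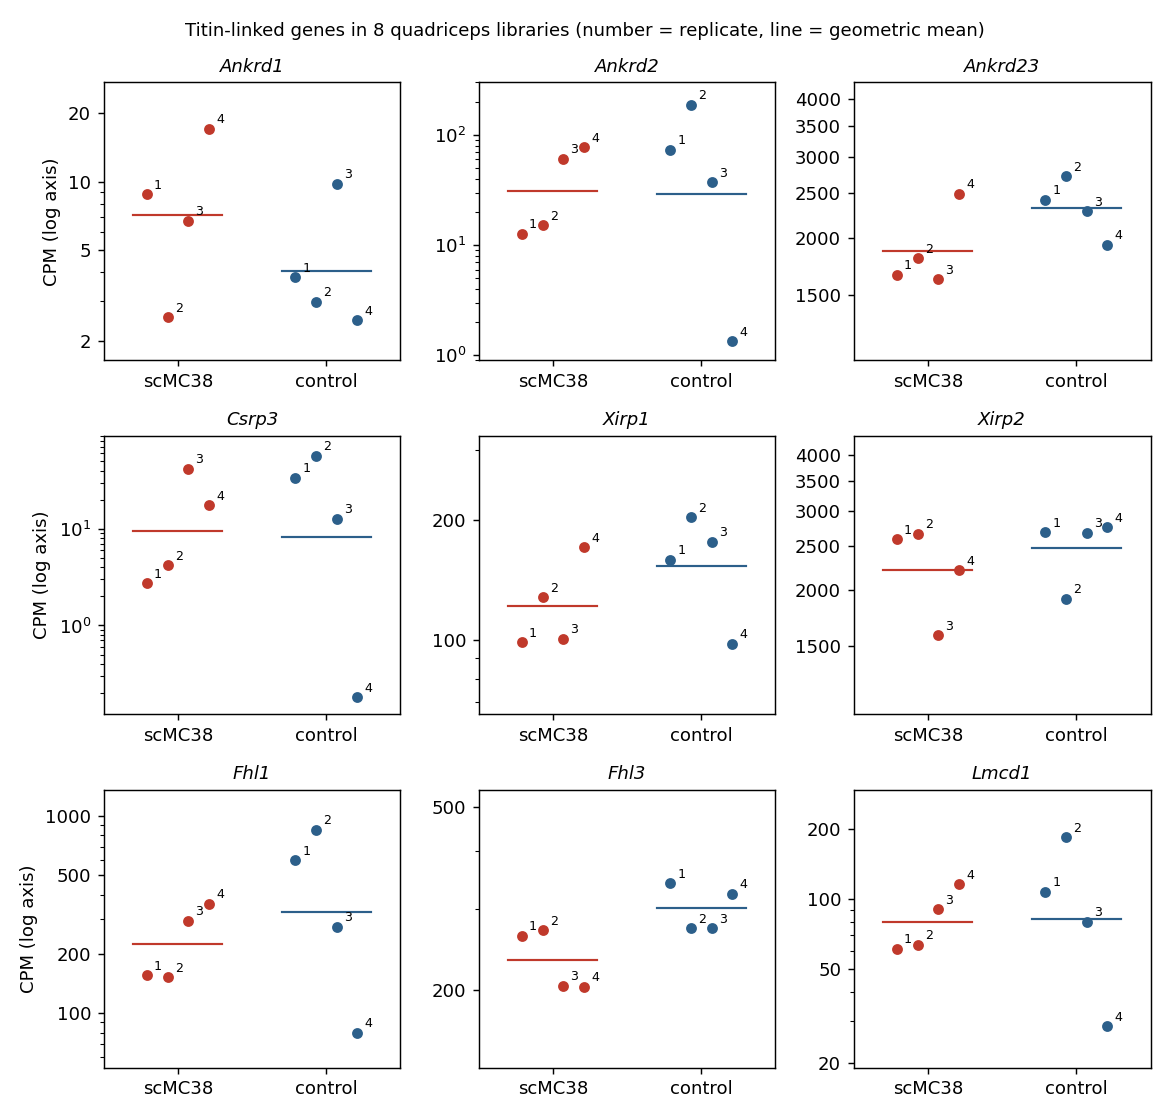
Level of each titin-linked gene in CPM on a log axis that differs by panel, with scMC38 mice in red on the left and control mice in blue on the right. Numbers give the replicate and lines the geometric mean of 4 mice. The groups overlap for 8 genes and are apart for Fhl3, and control 4 lies far below the other mice for Ankrd2 (1.35 CPM) and Csrp3 (0.182 CPM).

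Promoter sequences are shown for the member chosen as a textbook target of stretch-responsive transcription factors (Ankrd1) and for 4 of the 5 members that were highest in control 2 and lowest in control 4, the fifth, Xirp1, having no entry. They come from RefSeq on build GRCm38.p6, an earlier mouse build than the GRCm39 named for these data, and were matched by symbol. Of the 9 members 8 had an entry, with 11 promoters between them. Each line gives the 250 bases before the start site, 5′ to 3′ on the strand of the gene. For Ankrd1 (chr19:36119845-36120094, minus strand) capitals mark the TEAD core GGAATG, the site of the partners of the stretch-regulated coactivator YAP. For Ankrd2 (chr19:42035777-42036026, plus strand) and Csrp3 (chr7:48848052-48848301, minus strand, the first of 2 promoters) capitals mark the E-box CANNTG, bound by myogenic factors. For Fhl1 (chrX:56779433-56779682, plus strand, the first of 2) and Lmcd1 (chr6:112273508-112273757, plus strand) they mark the CArG box of serum response factor. The motif to mark was picked gene by gene. E-boxes left unmarked also lie in the shown windows of Ankrd1 (111 bases upstream), Fhl1 (41) and Lmcd1 (168).
Ankrd1: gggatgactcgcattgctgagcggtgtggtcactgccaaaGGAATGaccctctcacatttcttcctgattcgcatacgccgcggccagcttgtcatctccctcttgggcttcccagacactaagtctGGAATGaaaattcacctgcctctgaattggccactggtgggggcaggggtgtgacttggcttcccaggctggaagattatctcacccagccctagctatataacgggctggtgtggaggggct
Ankrd2: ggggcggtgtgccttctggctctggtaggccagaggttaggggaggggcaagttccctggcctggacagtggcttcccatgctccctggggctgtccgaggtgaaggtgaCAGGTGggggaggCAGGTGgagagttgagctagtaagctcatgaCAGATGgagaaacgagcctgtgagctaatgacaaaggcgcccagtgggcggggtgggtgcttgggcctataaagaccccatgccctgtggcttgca
Csrp3: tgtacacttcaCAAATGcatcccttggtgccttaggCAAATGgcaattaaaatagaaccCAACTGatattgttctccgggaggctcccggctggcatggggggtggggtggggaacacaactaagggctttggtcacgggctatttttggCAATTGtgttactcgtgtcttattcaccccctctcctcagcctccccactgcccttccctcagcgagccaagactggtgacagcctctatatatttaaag
Fhl1: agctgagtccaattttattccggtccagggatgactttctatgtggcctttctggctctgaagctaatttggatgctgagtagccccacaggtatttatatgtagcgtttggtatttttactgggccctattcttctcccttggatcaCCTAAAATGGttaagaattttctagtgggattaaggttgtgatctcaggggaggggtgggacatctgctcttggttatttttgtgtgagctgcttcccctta
Lmcd1: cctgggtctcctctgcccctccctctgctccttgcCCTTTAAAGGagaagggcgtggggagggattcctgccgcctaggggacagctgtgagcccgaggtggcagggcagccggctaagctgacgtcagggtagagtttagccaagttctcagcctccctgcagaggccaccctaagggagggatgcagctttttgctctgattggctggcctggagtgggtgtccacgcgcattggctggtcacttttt

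On either strand, the TEAD core was in 2 of the 11 member promoters (that of Ankrd1, with 2 copies at 210 and 123 bases upstream, and 1 of Ankrd23) and in 12.6% of all 32851 promoters of the same length. An E-box was in 9 of 11 member promoters and in 66.2% of all promoters. The CArG box was in 2 of 11 member promoters, Fhl1 at 102 and Lmcd1 at 215 bases upstream, and in 1.47% of all promoters. A MEF2 site was in 1 of 11, that of Xirp2, 74 bases upstream, and in 2.92% of all promoters. The only overlap between matches was between 2 E-boxes of Xirp2. These matches describe letters in a window and are no evidence of binding.

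Ankrd1, the ankyrin repeat protein best known from strained heart and injured muscle, was the member with a positive fold change. It stood at 8.84, 2.54, 6.75 and 17.1 CPM in scMC38 1 to 4, against 3.80, 2.97, 9.82 and 2.46 CPM in control 1 to 4. The groups overlapped, with scMC38 2 among the low controls and control 3 above all scMC38 mice but scMC38 4. Means were 8.81 ± 6.13 CPM in scMC38 and 4.76 ± 3.42 CPM in controls (SD, n = 4 each), and the log2 fold change was 0.89 (SE 0.60, 95% interval -0.48 to 2.26, edgeR adjusted p = 0.424). Without scMC38 4 it was 0.35, and without control 3 it was 1.51. It was 1.06 without scMC38 1 and 3 and 0.51 without control 1 and 2.

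Ankrd2, an ankyrin repeat protein of slow fibres, stood at 12.7, 15.2, 60.9 and 77.6 CPM in scMC38 1 to 4. In control 1 to 4 it stood at 73.7, 188, 37.2 and 1.35 CPM. The controls held both the highest and the lowest of the 8 values, so the groups overlapped throughout. Its log2 fold change of -0.85 had an interval from -3.40 to 1.70 (SE 1.11, adjusted p = 0.690), which leaves room for a several-fold difference in either direction. Its sign was not stable. The log2 fold change was 0.15 without control 2, 1.1 without control 1 and 2, and -0.67 without scMC38 1 and 3. With limma-voom and all mice kept it was 0.09.

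Ankrd23, the ankyrin repeat protein also linked to diabetic muscle, varied little between mice. Levels were 1664, 1808, 1626 and 2498 CPM in scMC38 1 to 4, against 2423, 2722, 2286 and 1934 CPM in control 1 to 4. In 3 of 4 scMC38 mice it was below all controls, and in scMC38 4 above all but control 2. Means were 1899 ± 407 CPM in scMC38 and 2341 ± 327 CPM in controls (SD, n = 4 each; log2 fold change -0.30, SE 0.18, interval -0.71 to 0.10, adjusted p = 0.357). This value was -0.46 without scMC38 4, -0.10 without scMC38 1 and 3, and -0.16 without control 1 and 2.

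Csrp3, the muscle LIM protein of the Z-disc, had the widest spread of the members. It stood at 2.73, 4.20, 41.7 and 17.6 CPM in scMC38 1 to 4, against 33.6, 57.0, 12.7 and 0.182 CPM in control 1 to 4. The value in control 4 rested on 10 estimated counts. As for Ankrd2, controls enclosed all scMC38 values. Its fitted log2 fold change was -0.64 with an interval from -3.47 to 2.19 (SE 1.24, adjusted p = 0.794). It was 0.09 without control 2, -1.05 without control 4, -1.67 without scMC38 3, -1.22 without scMC38 1 and 3, and 1.35 without control 1 and 2.

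The actin-binding Xin proteins differed less between mice. Xirp1 stood at 98.8, 128, 101 and 171 CPM in scMC38 1 to 4, against 159, 203, 176 and 97.8 CPM in control 1 to 4. In scMC38 1, 2 and 3 it was below control 1 to 3, while control 4 was the lowest of all 8. For Xirp1 the log2 fold change was -0.35 (SE 0.25, interval -0.92 to 0.21, adjusted p = 0.439). It was -0.54 without scMC38 4, -0.22 without control 2, -0.07 without scMC38 1 and 3, and -0.15 without control 1 and 2.

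Xirp2, the larger Xin protein, was at 2589, 2668, 1584 and 2213 CPM in scMC38 1 to 4. In control 1 to 4 it was at 2689, 1911, 2681 and 2753 CPM. Control 2, the highest mouse for 6 other members, was low for Xirp2, and so was scMC38 3. The log2 fold change was -0.15 (SE 0.20, interval -0.60 to 0.30, adjusted p = 0.697), and it was -0.01 without scMC38 3, -0.02 without scMC38 1 and 3, and -0.27 without control 1 and 2. Titin itself was low in the same libraries, with Ttn at 3915, 4260, 1539 and 2335 CPM in scMC38 1 to 4, against 2468, 1542, 2805 and 3693 CPM in control 1 to 4 (log2 fold change 0.20, adjusted p = 0.782).

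Fhl3, a LIM-only protein that binds actin and myogenic factors, was the 1 member whose groups did not overlap. The groups did not overlap for 13.3% of all tested genes. It stood at 262, 269, 204 and 203 CPM in scMC38 1 to 4, against 340, 272, 272 and 323 CPM in control 1 to 4. All scMC38 mice were below all controls, though scMC38 2 lay just under control 3. Means were 235 ± 35.9 CPM in scMC38 and 302 ± 35.3 CPM in controls (SD, n = 4 each). The log2 fold change of -0.36 (SE 0.14, interval -0.67 to -0.06) did not pass adjustment over all genes (adjusted p = 0.177). It was -0.34 without scMC38 1 and 3 and -0.35 without control 1 and 2, and between -0.44 and -0.30 when any single mouse was left out.

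Fhl1, the LIM-only protein abundant in oxidative muscle and mutated in human reducing body myopathy, stood at 156, 152, 295 and 359 CPM in scMC38 1 to 4. In control 1 to 4 it was at 598, 852, 275 and 79.7 CPM. Controls again spanned the whole range. The log2 fold change was -0.91 (SE 0.63, interval -2.33 to 0.52, adjusted p = 0.433), -0.40 without control 2, -0.79 without scMC38 1 and 3, and 0.43 without control 1 and 2. Lmcd1, a LIM protein that enhances calcineurin signalling in mouse heart, stood at 61.3, 63.7, 90.5 and 116 CPM in scMC38 1 to 4, against 107, 184, 79.9 and 28.5 CPM in control 1 to 4. For Lmcd1 the scMC38 mice lay between control 4 and control 2 (log2 fold change -0.27, SE 0.48, interval -1.35 to 0.81, adjusted p = 0.775). Its log2 fold change was 0.20 without control 2, -0.58 without control 4, -0.13 without scMC38 1 and 3, and 0.60 without control 1 and 2.

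**Figure D2:**
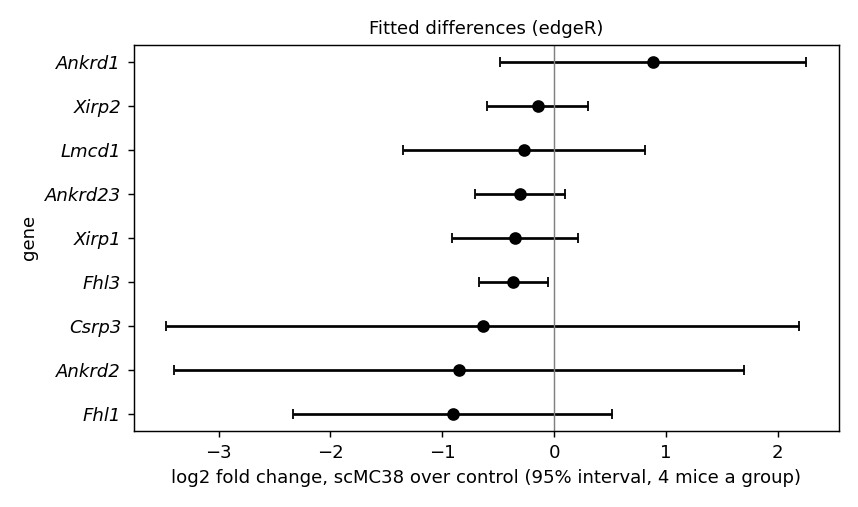
Fitted log2 fold change of scMC38 over control for the 9 members, from edgeR, with 95% intervals over 4 mice a group. Every interval but that of Fhl3 (-0.67 to -0.06) includes 0, and those of Csrp3 and Ankrd2 are the widest.

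The spread within groups divided the members. The pooled within-group SD of log2 CPM was 2.88 for Csrp3, 2.38 for Ankrd2, 1.16 for Fhl1, 1.02 for Ankrd1 and 0.85 for Lmcd1, against a median of 0.22 over all tested genes. Csrp3 ranked 24 and Ankrd2 ranked 44 of the 14112 genes by this SD. Xirp1 (0.42), Xirp2 (0.30) and Ankrd23 (0.25) were closer to that median, and Fhl3 (0.20) lay below it.

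Ankrd2, Csrp3, Fhl1 and Lmcd1 ordered the mice in much the same way, though by different amounts. For these 4 and for Ankrd23, which varied little, the controls ran from high to low as control 2, 1, 3 and 4. Among scMC38 mice, scMC38 3 and 4 were above scMC38 1 and 2 for Ankrd2, Csrp3, Fhl1 and Lmcd1. Control 2 was the highest of the 8 mice for 6 members and control 4 the lowest for 6. Both held for 5 of 9 members, and for 4.27% of all tested genes, a count made after the values were seen. Ankrd1, another member with a wide spread, had its controls in the order 3, 1, 2 and 4, and Xirp1 in the order 2, 3, 1 and 4. Fhl3 and Xirp2 followed neither.

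The genes whose profile over the 8 libraries came closest to the 3 widest-ranging members were found among 10774 genes, by the root mean square difference of log2 CPM after centring each gene on its own mean. For Csrp3 they were Myh2, the myosin heavy chain of fast oxidative fibres (difference 0.61), Ankrd2 (0.62) and Myoz2 (0.75), a Z-disc calcineurin-binding protein of slow muscle. For Ankrd2 they were Bdh1, a ketone body enzyme (0.46), Klhl34 (0.52) and Myoz2 (0.52). For Fhl1 they were Atp1b1, a subunit of the sodium pump (0.18), Lrrn1 (0.21) and Fxyd6 (0.25). Among the members themselves the closest pairs were Ankrd23 with Xirp1 (0.18), Xirp2 with Fhl3 (0.21) and Ankrd23 with Fhl3 (0.33), all of narrow range. Ankrd2, Csrp3, Fhl1 and Lmcd1 lay 0.39 to 1.81 apart.

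Myosin heavy chain genes, which mark fibre types, also differed between mice of a group, and not all in 1 order. Myh2 stood at 133, 84.8, 544 and 561 CPM in scMC38 1 to 4, against 1306, 2296, 529 and 9.43 CPM in control 1 to 4 (log2 fold change -1.65, adjusted p = 0.462). Myh2 was highest in control 2 and lowest in control 4, like Ankrd2 and Csrp3. Myh7, the slow myosin heavy chain, stood at 73.5, 0.0378, 0.940 and 29.3 CPM in scMC38 1 to 4, against 2.19, 185, 76.5 and 0.0546 CPM in control 1 to 4 (log2 fold change -1.35, adjusted p = 0.719). Myh7 was also high in control 2 and low in control 4. Unlike Ankrd2 and Csrp3, it was high in scMC38 1 and control 3 and low in scMC38 3 and control 1. Myh4, the heavy chain of the fastest fibres, stood at 46231, 36193, 25906 and 43203 CPM in scMC38 1 to 4, against 30777, 16229, 38182 and 43352 CPM in control 1 to 4 (log2 fold change 0.24, adjusted p = 0.700). Myh4 was lowest in control 2 and high in control 4, opposite to Myh2. The 11 slow fibre genes summed to 348, 82.6, 201 and 276 CPM in scMC38 1 to 4, against 219, 1510, 439 and 79.2 CPM in control 1 to 4. None was at 0 counts in any library.

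With the level of Myh2 as a covariate, a setting chosen after seeing the data, the log2 fold changes were 0.59 for Ankrd2 (adjusted p = 0.179), 1.02 for Csrp3 (adjusted p = 0.201), 0.12 for Lmcd1 (adjusted p = 0.664) and -0.34 for Fhl1 (adjusted p = 0.281). The slow fibre level as covariate was also chosen after seeing the data. With it the log2 fold changes were 0.55, 0.62, 0.17 and -0.35 for Ankrd2, Csrp3, Lmcd1 and Fhl1, with adjusted p from 0.717 to 0.820. Myh2 was the gene closest to Csrp3. The slow fibre list holds Myoz2, which was among the genes closest to Csrp3 and to Ankrd2. Neither setting is therefore independent of the members. The part of fibre composition in the members' spread was not tested.

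**Figure D3:**
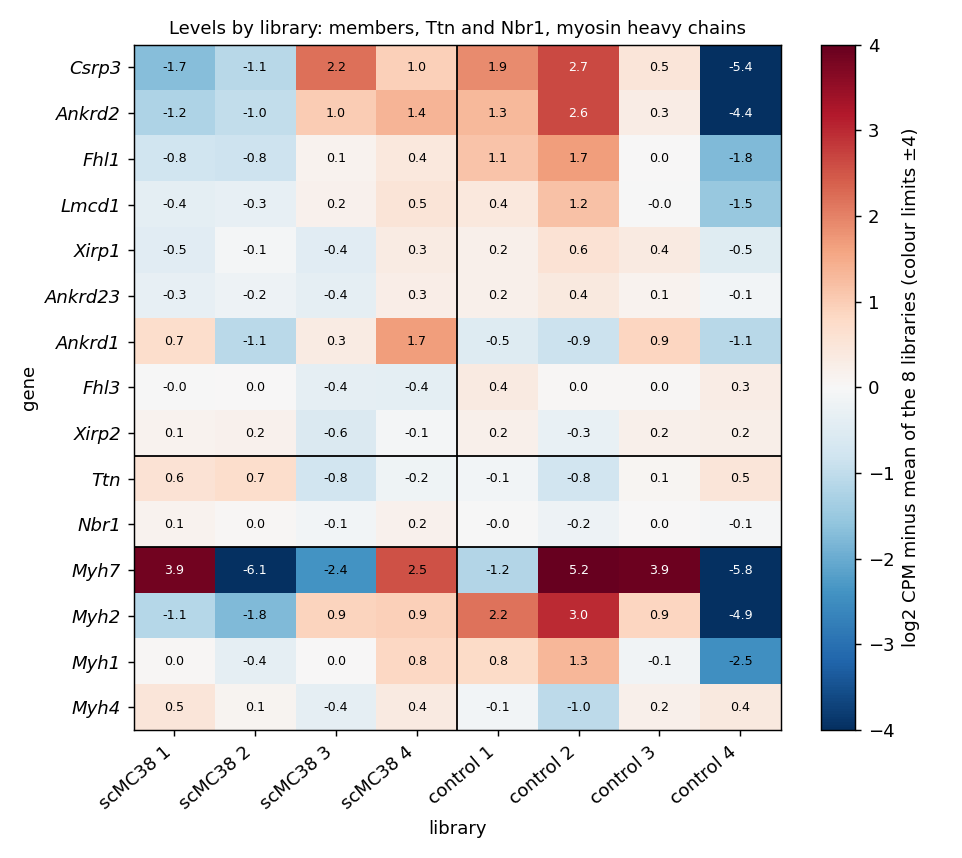
Log2 CPM of each gene minus its mean over the 8 libraries, with scMC38 1 to 4 on the left and control 1 to 4 on the right. Rows give the 9 members, then Ttn and Nbr1, then myosin heavy chains, and the colour scale ends at 4 in either direction. Csrp3, Ankrd2, Fhl1 and Lmcd1 share high values in control 2 and low values in control 4 with Myh7, Myh2 and Myh1. Ttn and Myh4 are low in control 2.

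Genes of titin and its partners were fitted beside the members. Of 14 in the list of titin and its partners, which holds Ttn itself, 1 was higher and 0 lower in scMC38 by edgeR (median log2 fold change 0.02, against 0.00 over all genes). By edgeR 1.2% of all genes were called. Of the 14, 3 had an unadjusted p under 0.05, and DESeq2 and limma-voom each called 1. Over all genes these shares were 21%, 10.1% and 1.05%. The gene called was Trim63, the ubiquitin ligase MuRF1, which binds titin near its kinase. It stood at 716, 766, 874 and 1304 CPM in scMC38 1 to 4, against 281, 263, 442 and 262 CPM in control 1 to 4, with no overlap (log2 fold change 1.55, SE 0.25, adjusted p = 0.0322). Groups were also apart, in either direction, for 13.3% of all tested genes. Leaving out any mouse other than control 3 moved the adjusted p of Trim63 to between 0.0527 and 0.115. It was 0.0597 without scMC38 1 and 3 and 0.283 without control 1 and 2.

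The titin kinase and M-band list had 0 of 12 called by edgeR (median 0.14), with 4 at an unadjusted p under 0.05. DESeq2 called 3 of the 12 and limma-voom 0. Over all genes edgeR called 1.2%, DESeq2 10.1% and limma-voom 1.05%, and 21% had an unadjusted p under 0.05 by edgeR. Its genes with the smallest p were the autophagy genes Map1lc3b (log2 fold change 0.46, adjusted p = 0.0825) and Gabarapl1 (0.36, adjusted p = 0.118), both with scMC38 above all controls. Sqstm1 in the same list was level with Gabarapl1 (0.39, adjusted p = 0.118), also with scMC38 above all controls. The groups did not overlap for 13.3% of all tested genes, in either direction. Nbr1, the autophagy receptor that the titin kinase binds, stood at 94.2, 88.4, 78.8 and 96.3 CPM in scMC38 1 to 4, against 85.2, 74.6, 85.9 and 82.2 CPM in control 1 to 4. The groups of Nbr1 overlapped (log2 fold change 0.13, adjusted p = 0.436). Of 23 Z-disc genes 0 were called by edgeR, DESeq2 or limma-voom (median -0.09, 2 at an unadjusted p under 0.05). Those with the smallest p were Pdlim5 (0.30, adjusted p = 0.226), a PDZ and LIM protein, and Myoz3 (-0.47, adjusted p = 0.231), a calcineurin-binding protein.

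Costamere and integrin genes had 1 of 21 called by edgeR, lower in scMC38 (median -0.05), where 1.2% of all genes were called. Of the 21, 4 had an unadjusted p under 0.05, 3 were called by DESeq2 and 1 by limma-voom. Over all genes these shares were 21%, 10.1% and 1.05%. The gene called by edgeR was Itgb1bp2, which encodes melusin, an integrin-binding protein that senses strain in the mouse heart. It stood at 74.5, 77.0, 61.4 and 82.8 CPM in scMC38 1 to 4, against 122, 143, 135 and 105 CPM in control 1 to 4. All scMC38 mice were below all controls, with means of 73.9 ± 9.06 CPM in scMC38 and 126 ± 16.6 CPM in controls (SD, n = 4 each; log2 fold change -0.77, SE 0.13, adjusted p = 0.0338). Groups were likewise apart, in either direction, for 13.3% of all tested genes. The call of Itgb1bp2 was kept without control 4, and its adjusted p was between 0.0538 and 0.107 when any other mouse was left out. It was 0.0889 without scMC38 1 and 3 and 0.247 without control 1 and 2.

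Genes of the stretch-regulated transcription factors were fitted in the same way. Of 24 YAP and TEAD genes 0 were called by edgeR, DESeq2 or limma-voom (median 0.05, 4 at an unadjusted p under 0.05). Tead3, a TEAD factor, was at a log2 fold change of -0.33 (adjusted p = 0.159) and Ccn1, a YAP target, at 0.56 (adjusted p = 0.214). Among 21 MRTF and SRF genes 1 was lower in scMC38 and 0 higher by edgeR (median -0.14), where 1.2% of all genes were called. Of the 21, 9 had an unadjusted p under 0.05, 5 were called by DESeq2 and 1 by limma-voom (over all genes 21%, 10.1% and 1.05%). The gene called was Filip1l, which encodes a filamin-interacting protein, at 33.7, 39.6, 32.8 and 34.2 CPM in scMC38 1 to 4, against 50.9, 48.3, 53.1 and 51.2 CPM in control 1 to 4. No values of Filip1l overlapped (log2 fold change -0.54, SE 0.08, adjusted p = 0.0273). Its call was lost without scMC38 1 or 4 or control 1, 2 or 3, with adjusted p from 0.0570 to 0.0963, and it was 0.0908 without scMC38 1 and 3 and 0.216 without control 1 and 2. Among genes of the list not called by edgeR, Junb was at 1.25 (adjusted p = 0.0510) and Mrtfa at -0.65 (adjusted p = 0.0682). The groups of both were apart, as for 13.3% of all tested genes. Smooth muscle markers, 3 of which (Acta2, Tagln and Cnn1) are also in this list, summed to 3038 to 3711 CPM in scMC38 and 2869 to 3163 CPM in controls, with none of 7 at 0 counts. Most of that sum was Des, desmin, which skeletal fibres also make. Without Des the other 6 summed to 128 to 157 CPM in scMC38 and 172 to 238 CPM in controls, with no overlap, and all 6 log2 fold changes were negative (median -0.66). Of the 7 markers, 1 was lower in scMC38 by edgeR and 5 had an unadjusted p under 0.05. The values of Acta2, Tagln and Cnn1 were -0.92 (adjusted p = 0.0865), -0.50 (adjusted p = 0.223) and -1.66 (adjusted p = 0.126). Their part in these values was not tested.

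Close relatives of the LIM members were not called. Of 4 tested family genes 0 were called by edgeR, DESeq2 or limma-voom, with 0 at an unadjusted p under 0.05 and a median of -0.08. Over all genes these tools called only 1.2%, 10.1% and 1.05%, and 21% had an unadjusted p under 0.05 by edgeR. Csrp1, a broadly expressed LIM protein related to Csrp3, was at -0.34 (adjusted p = 0.341) and its relative Csrp2 at 0.32 (adjusted p = 0.374).

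**Figure D4:**
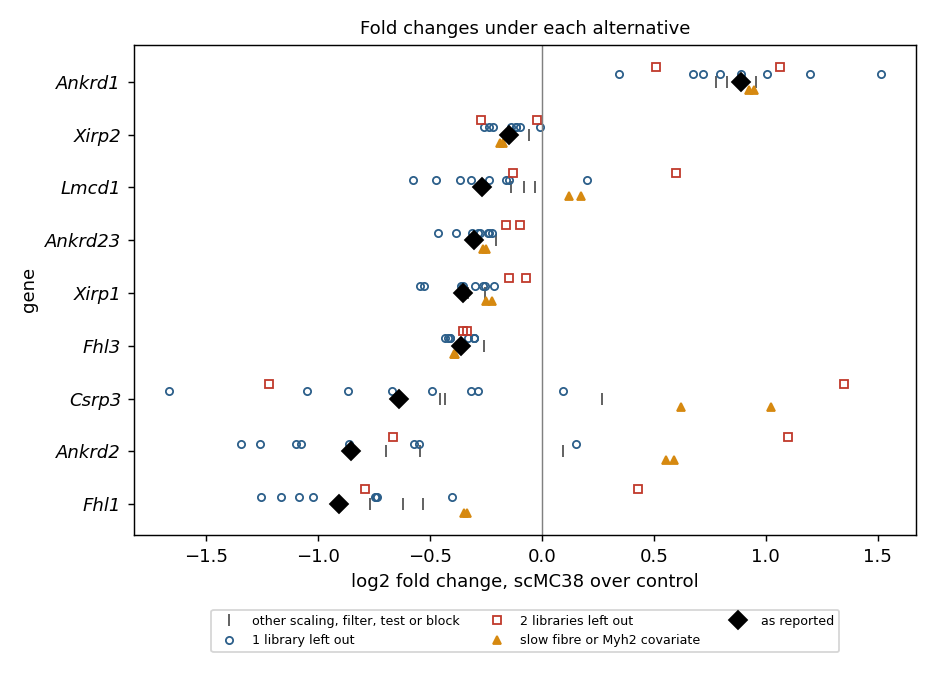
Log2 fold change of scMC38 over control for the 9 members under each alternative, with the reported value as a black diamond. Fhl3, Xirp1, Xirp2, Ankrd23 and Ankrd1 keep their sign in all of them, while Ankrd2, Csrp3, Lmcd1 and Fhl1 change sign when control 1 and 2 are left out together.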

How the data were processed

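Total RNA came from an RNeasy Mini Kit and was turned into libraries by the Universal Plus mRNA-seq kit, per the labels' protocols. Software named in the submitters' processing notes, without roles, was Salmon 1.10.3, fastp 1.0.1, FastQC 0.12.1, MultiQC 1.30 and R 4.4.3, with build GRCm39. The authors deposited 1 table of estimated counts, a row per gene and a column per mouse, with no correction for depth. The sources used here give neither the annotation release nor the strand handling. Levels were not compared between genes.

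Of 35667 rows, 144 without a symbol (0.00270% to 0.00403% of counts) were left out, 26 repeated symbols were summed, and values were rounded. Testing was by edgeR 4.0.16 (R 4.3.3), with its quasi-likelihood test in robust mode, after filterByExpr with a minimum count of 10 and a minimum total of 15 and after TMM scaling. The Benjamini-Hochberg adjustment covered all 14112 genes tested. CPM values are TMM-scaled, log2 CPM carries a prior count of 2, and each SE is that implied by the F statistic. Unless another tool is named, adjusted p-values are edgeR's. Each library comes from another mouse, and libraries of a group differed beyond counting noise (chi-square per degree of freedom 63.2 to 480).

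On simulated counts for this comparison (13987 genes), 85% of 100 genes changed by 1 log2 unit and 98% of 100 changed by 2 were recovered, with 5.18% false among calls. The changed genes were drawn at random from the more abundant genes, not from the members. Csrp3, Ankrd2, Fhl1, Ankrd1 and Lmcd1 had a within-group SD far above the median of all tested genes, so these shares do not apply to them. DESeq2 1.42.0 and limma 3.58.1 were alternatives. The members and lists were chosen with earlier results of these data known. All members are named. From each other list, apart from the cell type markers, the called genes are named, or the 2 with the smallest p where none was called. Some further genes are named beside these. Called genes among the cell type markers are not all named. The likeness search kept genes whose mean log2 CPM was 1 or more. It left out symbols made of Gm and digits, those ending in Rik, and accession-like symbols.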

Additional observations from a re-analysis of the deposited data

Results flagged for a closer look

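Among the 18 combinations of a member and a group, 1 was flagged by the gap between a mouse and the other 3, taken in CPM. The low values of Ankrd2 (1.35 CPM) and Csrp3 (0.182 CPM) in control 4, many-fold below the other controls, were not flagged by this measure. Xirp2 stood at 1911 CPM in control 2, against 2681 to 2753 CPM in the other 3 controls, and the gap was 0.914 of the range of the group, above Dixon's 95% critical value for 4 samples. Chance gives such a gap in about 1 in 20 groups. Ttn was also lowest among controls in that mouse (1542 CPM). Without control 2, Xirp2 had a log2 fold change of -0.26.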

How the results depend on the processing

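No member was called under any setting, including each library left out in turn, where the smallest adjusted p of a member was 0.160 (edgeR). The smallest under any setting was 0.0704, for Fhl3 with DESeq2. Over all genes, the 170 calls became 267 with scaling by total counts, 1426 with the DESeq2 Wald test, 263 with Myh2 as covariate, 64 without scMC38 1 and 3, 0 without control 1 and 2 (1605 at an unadjusted p under 0.05), and 2 to 99 with any single library left out. The cause was not tested. With total count scaling the median log2 fold change over all genes moved by 0.11, and 80.9% of its calls were higher in scMC38, against 61.2% with TMM. Deviations of same-numbered mice from their group means correlated at -0.28 to -0.01 over genes. Differently numbered mice were not compared, so these values do not settle whether replicate numbers pair the mice. The fit with the replicate block called 1 gene and 0 members. Trim63, Filip1l and Itgb1bp2 then had adjusted p of 0.173, 0.184 and 0.186.

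Signs changed as follows, with the cause not tested. Ankrd2 was at 0.092 with limma-voom, 0.55 and 0.59 with the slow fibre and Myh2 covariates, 1.1 without control 1 and 2, and -1.34 to 0.15 with 1 library left out. Csrp3 was at 0.27, 0.62, 1.02, 1.35 and -1.67 to 0.094 under the same settings. Lmcd1 was at 0.17 and 0.12 with the covariates, 0.60 without control 1 and 2, and -0.58 to 0.20 with 1 library left out. Without control 1 and 2, Fhl1 was at 0.43 and Myoz2 at 0.35, and Myoz2 was at 0.028 with the Myh2 covariate. The other member results kept their sign. With 4 mice a group, the intervals of Ankrd2 and Csrp3 include differences of several fold in either direction.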

Other observations

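Genes that respond when muscle loses its nerve supply, several of which share stretch and injury responses with Ankrd1, had 0 of 13 called by edgeR, DESeq2 or limma-voom (median log2 fold change 0.16, 1 at an unadjusted p under 0.05). Over all genes these tools called 1.2%, 10.1% and 1.05%, and 21% had an unadjusted p under 0.05 by edgeR. Runx1, a transcription factor induced by denervation, averaged 5.66 ± 3.36 CPM in scMC38 and 2.91 ± 0.757 CPM in controls (SD, n = 4 each; log2 fold change 0.96, adjusted p = 0.204). Its log2 fold change was 0.48 without scMC38 3 and 0.20 without scMC38 1 and 3, the libraries with the highest bone and marrow markers. Chrnb1, an acetylcholine receptor subunit, was at 0.35 (adjusted p = 0.283), and at 0.17 without scMC38 4.

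For each of the 11 slow fibre genes the fitted value was below 0, and 0 were called by edgeR, DESeq2 or limma-voom (median -1.78, 0 at an unadjusted p under 0.05). Their median within-group SD was 3.45 on the log2 scale. Myl3, the slow myosin light chain, was at -3.06 (adjusted p = 0.350) and Myoz2 at -1.78 (adjusted p = 0.419). Without control 2 they were at -1.29 and -0.70, and Myl3 was at -1.37 without control 1 and 2 and -0.37 with Myh2 as covariate. Of 13 fast fibre genes 0 were called by edgeR, 2 by DESeq2 and 0 by limma-voom (median -0.14, 3 at an unadjusted p under 0.05). Over all genes edgeR called 1.2%, DESeq2 10.1% and limma-voom 1.05%, and 21% had an unadjusted p under 0.05 by edgeR. Casq1, the calcium store protein of fast fibres, averaged 1654 ± 366 CPM in scMC38 and 2731 ± 620 CPM in controls (SD, n = 4 each; log2 fold change -0.72, adjusted p = 0.124), with all scMC38 mice below all controls. Groups were apart in this way, in either direction, for 13.3% of all tested genes. Myl1, a fast light chain, was at -0.65 (adjusted p = 0.147).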
